A study of Mus musculus with 3 samples.

Results

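The Kruppel-like factor (KLF) genes described here were Klf2, Klf3, Klf4, Klf6, Klf7, Klf9, Klf10, Klf11, Klf13 and Klf16. They were chosen by symbol, with no measured value in the rule but with earlier results of these data known. They are 10 of the 55536 annotated mouse genes in the deposited tables, 22028 of which are protein-coding. RNA was taken from the chromatin fraction of primary bone-marrow-derived macrophages of C57BL/6J mice, phagocytes grown in culture from marrow precursors. The cells had been stimulated for 30 min with Lipid A at 100 ng/ml, a bacterial lipid that engages the endotoxin receptor TLR4, and ribosomal RNA was depleted before total RNA sequencing. There was 1 group of 3 libraries, made from 1 µg (library 1), 250 ng (library 2) and 500 ng (library 3) of RNA. No unstimulated library was analysed here, so every value below is a level after stimulation and none is an induction. The libraries carry the same donor record, so their spread may be partly technical and describes these libraries.

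KLF proteins bind GC-rich and CACCC elements through zinc fingers at their C-terminal end, and the rest of each protein recruits coactivators or corepressors. In myeloid cells Klf2 and Klf4 are known as brakes on inflammatory activation and as factors of monocyte differentiation, while Klf6 is known to favour inflammatory gene expression. Several KLF genes are transcribed within minutes of a stimulus, and chromatin-bound RNA is enriched in transcripts that are still being made or processed.

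Library totals were 16205704 to 17033725 expected counts on annotated genes, so that a count of 0 allows up to 0.176 to 0.185 CPM, the number of counts scaled to library size (counting error only). Of the macrophage markers, 10 of 10 were detected, and their summed level was 646 to 1010 TPM, a level per transcript length whose total is the same in every library. Endothelial cells are another known source of Klf2 and Klf4, and 2 of 8 endothelial markers were detected, Kdr at 1.18 TPM and Pecam1 at 0.48 TPM. The summed endothelial level was 1.57 to 2.64 TPM, the defining marker Cdh5 had 1 to 7 counts and Cldn5 had 0. In the first of 2 deposited quantifications, used unless the second is named, no T and NK, B or epithelial marker was detected, against 1 of 8 neutrophil, 2 of 7 erythroid and 3 of 7 stromal markers. In the second, 3 of 8 T and NK, 2 of 6 B and 1 of 6 epithelial markers were, among them Cd3d at 14.1 TPM and Ebf1 at 2.23 TPM. There 3 of 8 endothelial markers were detected, and Pecam1 was at 5.21 TPM and Kdr at 1.95 TPM. In these bulk samples fewer cells of a type and less RNA per cell cannot be told apart. Annotated genes shorter than 300 nt held 72.8%, 66.3% and 56.7% of all TPM in libraries 1 to 3, and this moves every TPM below by the same factor within a library.

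All 10 KLF genes were detected, which here means an average of 10 or more expected counts over the libraries, as were 49.9% of protein-coding genes. Because the genes were chosen with earlier results known, neither this count nor their median level is a result about the family. Of the 7 other KLF genes, 1 was detected. At least 10 counts in every library were found for 7 of the 10, and for 10438 of the 22028 protein-coding genes. Klf4, Klf9 and Klf16 had fewer in 1 library each. The genes fell into 3 tiers of level. Klf6 stood alone at the top with 233 ± 106 TPM (SD, n = 3), Klf13, Klf3, Klf7, Klf2 and Klf10 lay between 4.60 and 15.6 TPM, and Klf4, Klf16, Klf9 and Klf11 lay between 0.20 and 0.29 TPM. The median of the 10 genes was 5.82 ± 2.62 TPM, beside 4.94 ± 1.75 for detected protein-coding genes and 0.29 ± 0.12 for all protein-coding genes.

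**Figure D1:**
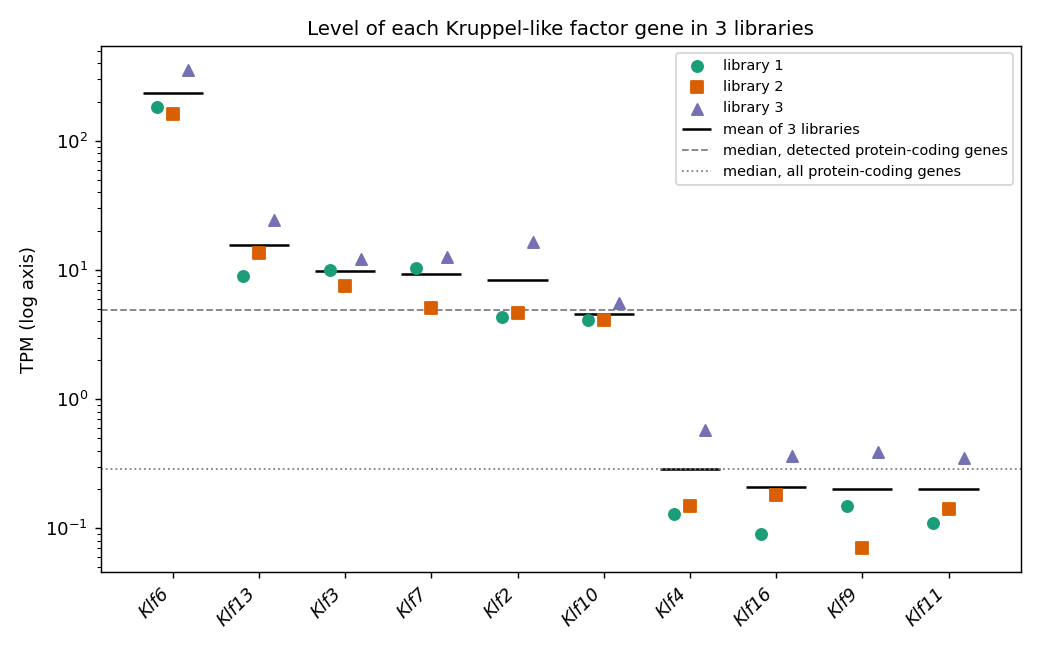
TPM of each gene in each library on a log axis, with the mean of 3 libraries as a black bar and the medians of all and of detected protein-coding genes as grey lines. Klf6 lies at 163 TPM or more in every library, 5 genes lie around the median of detected genes, and 4 lie around the median of all protein-coding genes.

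Among the members known mainly as activators, Klf6 had the highest level. Klf6 (ENSMUSG00000000078.7, chr13:5861482-5870394 on mm10, plus strand) encodes a widely expressed factor of early responses to injury and growth signals. Its level was 182, 163 and 355 TPM in libraries 1 to 3, from 12573, 10447 and 18706 expected counts. Library 3 was the highest, and libraries 1 and 2 lay close together below it. Klf6 ranked 89 among 22028 protein-coding genes by mean TPM. It held 82.6% ± 0.45 of the summed TPM of the 10 genes and 84.2% ± 1.80 of their summed counts, so the summed KLF level of 221, 198 and 428 TPM followed Klf6. In the second quantification it held 80.4% ± 2.22 of their summed counts. By TPM it was at 452 ± 162 there, with Klf10 next at 214 ± 79.2, so its share of TPM was smaller.

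Klf7 (ENSMUSG00000025959.13, chr1:64029447-64122282, minus strand), first known from neurons and adipose tissue, had 10.3, 5.12 and 12.6 TPM. Library 2 was the low one. Klf2 (ENSMUSG00000055148.7, chr8:72319033-72321656, plus strand), a factor of endothelial and lymphocyte quiescence, had 4.34, 4.61 and 16.4 TPM from 191, 182 and 427 counts. Libraries 1 and 2 nearly coincided and library 3 stood well above both, so that the mean of 8.45 TPM became 4.475 without library 3. Klf4 (ENSMUSG00000003032.8, chr4:55527143-55532466, minus strand), a reprogramming factor that also drives monocyte differentiation, had 0.13, 0.15 and 0.58 TPM. Only 7, 10 and 26 counts lay behind these values, with exact 95% Poisson intervals of 2.81 to 14.4, 4.80 to 18.4 and 17.0 to 38.1 counts. The intervals of libraries 1 and 3 did not overlap, while those of libraries 2 and 3 did. The mean of 0.29 TPM became 0.14 without library 3.

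Klf3 (ENSMUSG00000029178.14, chr5:64803388-64832901, plus strand) encodes a repressor that recruits the corepressor CtBP. Its level was 10.1, 7.50 and 12.2 TPM, 9.91 ± 2.33 on average, from 851, 558 and 731 counts.

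The other 5 genes encode factors known to bind the Sin3 corepressor. Klf13 (ENSMUSG00000052040.10, chr7:63886351-63938915, minus strand), known as a regulator of Ccl5 in T cells, was the highest of these and second among all 10. Its TPM was 9.06, 13.6 and 24.3, lowest in library 1 and highest in library 3. Klf10 (ENSMUSG00000037465.10, chr15:38291463-38300706, minus strand), an early gene of TGF-beta signalling, had 4.14, 4.12 and 5.53 TPM from 277, 267 and 175 counts. It had the fewest counts in the library where its TPM was highest. Its effective length there was 1963 nt, against 2513 and 2647 nt in libraries 1 and 2. The share of TPM on genes under 300 nt also differed between libraries. With TPM rescaled over annotated genes of at least 300 nt, Klf10 was at 15.3, 12.2 and 12.8, so library 3 was not the highest.

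Klf16 (ENSMUSG00000035397.8, chr10:80567124-80577321, minus strand), a ubiquitous Sp1-like repressor, had 0.09, 0.18 and 0.36 TPM from 6, 11 and 14 counts. Klf9 (ENSMUSG00000033863.2, chr19:23141226-23168134, plus strand), a target of glucocorticoid and thyroid hormone receptors, had 0.15, 0.07 and 0.39 TPM from 17, 7 and 27 counts. Klf11 (ENSMUSG00000020653.12, chr12:24651274-24662789, plus strand), the close relative of Klf10, had 0.11, 0.14 and 0.35 TPM from 11, 13 and 22 counts. For these 3 genes library 3 was again the highest. The Poisson intervals of its counts overlapped those of both other libraries, except for Klf9 against library 2 (17.8 to 39.3 against 2.81 to 14.4 counts). Their means of 0.21, 0.20 and 0.20 TPM became 0.135, 0.11 and 0.125 without library 3. At this depth their levels are known only as low.

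The genes were ranked by mean TPM over these libraries, and their order was then compared within the same libraries. The pairs and their direction thus came from the values compared, so this describes how steady the order was. A pair was called ordered when the difference in log2(TPM + 0.1) had the same sign in every library and its mean exceeded its SD. Of the 9 pairs that neighbour each other, 2 were ordered. Klf6 exceeded Klf13 by 3.92 ± 0.37 on the log2 scale, and Klf10 exceeded Klf4 by 3.78 ± 0.63. Each had an exact two-sided sign-flip permutation p of 0.25, the smallest that 3 libraries can give, so the test cannot pass 0.05. The remaining neighbours did not differ beyond their spread. Klf2 was above Klf10 in 3 of 3 libraries, but by 0.59 ± 0.83, a mean set by library 3, where the difference was 1.55 against 0.07 and 0.16. Over all 45 pairs, 33 were ordered, and the share for arbitrary pairs of genes was not counted.

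Promoter stretches are shown for 1 gene of the top tier, 1 of the middle tier and 1 of the lowest tier, so that the sequence upstream of genes with very different levels can be read side by side. They come from RefSeq windows on GRCm38.p6 that run from 250 bases before to 50 bases after the start site, which held 8 of the 10 genes; Klf10 and Klf16 had no window. Printed are only the bases upstream of the annotated start, 5′ to 3′ on the gene's strand. In Klf6 (chr13:5861239-5861481, plus strand) the capitals mark GC boxes, the E-box and CCAAT boxes, in Klf2 (chr8:72318812-72319032, plus strand) GC boxes and a MEF2 motif, and in Klf4 (chr4:55532476-55532725, minus strand) GC boxes and an E-box.
Klf6: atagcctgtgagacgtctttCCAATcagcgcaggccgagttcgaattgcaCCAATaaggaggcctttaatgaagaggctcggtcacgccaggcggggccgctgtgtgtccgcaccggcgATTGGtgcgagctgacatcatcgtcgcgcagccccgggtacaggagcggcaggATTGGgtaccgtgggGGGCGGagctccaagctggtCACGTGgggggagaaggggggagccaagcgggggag
Klf2: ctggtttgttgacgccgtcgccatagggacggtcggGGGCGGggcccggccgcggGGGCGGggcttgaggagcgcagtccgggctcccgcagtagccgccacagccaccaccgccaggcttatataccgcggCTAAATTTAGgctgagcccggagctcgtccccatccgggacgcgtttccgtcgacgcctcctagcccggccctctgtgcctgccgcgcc
Klf4: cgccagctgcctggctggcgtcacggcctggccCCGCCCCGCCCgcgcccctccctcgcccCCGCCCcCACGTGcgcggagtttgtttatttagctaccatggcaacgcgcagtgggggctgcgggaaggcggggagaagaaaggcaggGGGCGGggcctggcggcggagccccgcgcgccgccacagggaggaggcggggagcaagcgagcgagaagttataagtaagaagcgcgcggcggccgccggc

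All motifs were searched on both strands of the 300-base windows. The GC box GGGCGG, the classical Sp and KLF element, was in 7 of 8 KLF windows, all except Klf9, and in 35.7% of 32851 promoter windows. CACCC was in 5 of 8, against 57.5% of all windows. Klf3 carried the most matches of both kinds, 6 GC boxes and 5 CACCC boxes. The KLF windows had a median GC content of 70.7%, against 52.7% over all windows, and a median CpG ratio of observed to expected of 0.87 against 0.38. The GC box is itself GC-rich, and no comparison at matched GC content was made.

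The E-box CACGTG was in 3 of 8 windows (Klf4, Klf6 and Klf11) against 7.15% of all, and CCAAT in 4 of 8 against 37.4%. In Klf6 the E-box lay at positions -43 to -38 from the start site, and CCAAT was present 4 times. The NF-kB-like pattern GGGNNNNNCC, which overlaps GC boxes in Klf2, Klf4 and Klf13, was in 6 of 8 against 50.8%. The AP-1 motif TGANTCA was in 1 of 8 (Klf9) against 7.81%. The core TGACG of the cAMP response element was in 5 of 8 against 20.8%, while the full TGACGTCA was in 0 of 8 against 1.79%. A strict MEF2 motif was in Klf2 alone, 118 to 109 bases before the start, against 0.557% of all windows. TATAAA was in 0 of 8 against 13.6%, and the CArG box in 0 of 8 against 1.63%. CACGTG and TGACG each contain a CpG, and no comparison at a matched CpG ratio was made. A match describes letters only and is not shown to be bound here.

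To compare libraries apart from the TPM scale, log2 CPM after TMM scaling was used. Here 8 of 10 KLF genes were highest in library 3, as were 33.9% of detected protein-coding genes. Klf4 was 0.95 above its own mean in library 3, Klf9 0.74 and Klf2 0.69. Klf6 was 0.36 above its mean there and 0.36 below it in library 2. The exceptions were Klf3, highest in library 1, and Klf10, which was lowest in library 3 at -0.53 and highest in library 1 at 0.34. For Klf7 libraries 1 and 3 were at 0.14 and 0.15, and with TMM factors from all genes with no filter the count was 7. On log2(TPM + 0.1) all 10 were highest in library 3, but there the median of all detected genes was itself raised by 0.52.

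**Figure D2:**
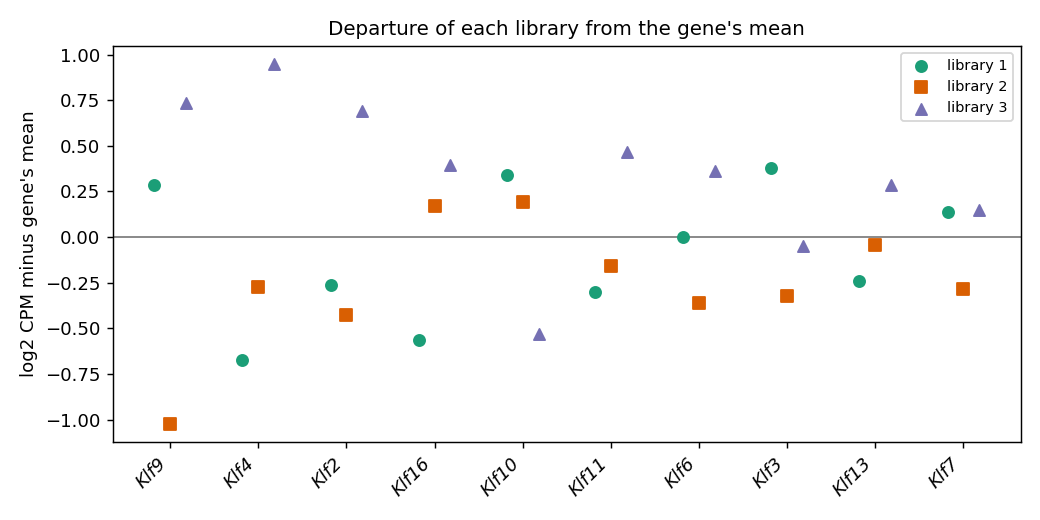
Departure of log2 CPM in each library from the gene's mean over 3 libraries, with genes in descending order of their SD. Library 3 is the top point for 8 genes and the bottom point for Klf10.

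The SD of log2 CPM between libraries had a median of 0.44 over the 10 genes and of 0.28 over the 14396 detected genes. With scaling by library totals only, the medians were 0.49 and 0.30. With no filter on low counts they were 0.437 and 0.432, the latter over 24084 genes. No comparison at matched counts was made. Klf9 (SD 0.92) and Klf4 (SD 0.85) spread more than 96.8% and 95.6% of detected genes, with few counts behind them. Klf2, with 182 to 427 counts, had an SD of 0.60, larger than that of 87.4% of detected genes. Klf7 (0.25) and Klf13 (0.27) were the steadiest. Library 3 was the only one made from 500 ng, so its amount of RNA and any other difference of that library cannot be told apart. Of the 16 early response genes, 12 were highest in library 3 on the same log2 CPM scale, with a median departure of 0.41 there. The macrophage markers (1 of 10 highest in library 3, median departure -0.20) and the KLF cofactor genes (2 of 12, -0.17) were not raised in that library. Among the lists described below, 3 of 4 detected Sp genes (0.11) and 8 of 17 upstream regulators (0.08) were highest there, as was Klf8 (0.25). It was 1 of 8 for the ubiquitin ligases (-0.02) and 4 of 16 for the target genes (-0.04). Whether the early response as a whole had a part in the KLF values was not tested.

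Transcripts annotated as noncoding (retained intron, nonsense-mediated decay or processed transcript) exist for 4 of the 10 genes: Klf6, Klf13, Klf3 and Klf9. They exist for 9017 of the 10983 detected protein-coding genes. In Klf13 the noncoding transcripts held 72.0% ± 3.37 of the gene's TPM and in Klf3 71.3% ± 10.2. These 2 passed 50%, as did 43.1% of the 9017 detected protein-coding genes with such a transcript. TPM weighs short transcripts more than counts do, and by expected counts the noncoding share was 27.7% ± 3.16 in Klf13 and 61.9% ± 9.28 in Klf3.

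The noncoding signal of Klf13 came from Klf13-203, a single exon of 934 nt (chr7:63935399-63936332). It lies wholly inside the only intron of the reference transcript Klf13-201. Klf13-203 had 6.36, 10.3 and 17.0 TPM, which was 3.20, 4.05 and 2.97 times Klf13-201. The excess in TPM was present in 3 of 3 libraries and again in the second deposited quantification, at 2.89 ± 0.24 times. By expected counts Klf13-201 was the higher, at 427 ± 126 against 164 ± 35.0 for the shorter Klf13-203.

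Klf3 was similar with 2 transcripts. Klf3-203 and Klf3-204, retained-intron models with 3285 and 2653 nt inside introns of Klf3-201, each held about the same share, 32.0% ± 1.10 and 31.9% ± 2.25. By TPM each was above Klf3-201 in libraries 1 and 2 (1.63 and 1.64 times for Klf3-203) and below it in library 3 (0.86 times). In the second quantification both were above it in every library, by 1.60 and 1.16 times in library 3. The level of Klf3-201 itself was 2.05, 1.46 and 4.37 TPM, highest in library 3.

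In Klf6 the reference transcript Klf6-201 had 106, 97.5 and 280 TPM, whereas Klf6-202, a retained-intron model, had 74.4, 62.7 and 73.6 TPM. Klf6-201 was highest in library 3 by TPM and by expected counts (11325, 9524 and 18005 in libraries 1 to 3). Klf6-202 had about the same TPM in library 1 as in library 3. Its expected counts were 1195, 865 and 671, lowest in library 3. Klf6-202 has only 98 of its 799 nt in introns of Klf6-201, so most of its sequence is shared with the coding transcript. Its first 120 bases are shown because they hold 90 of the 98 bases that set it apart from Klf6-201 (chr13:5864678-5864797, plus strand, from the GENCODE M21 transcript sequence). The intronic bases are in lower case, and the first 30 bases of the next Klf6-201 exon are in capitals.
Klf6-202: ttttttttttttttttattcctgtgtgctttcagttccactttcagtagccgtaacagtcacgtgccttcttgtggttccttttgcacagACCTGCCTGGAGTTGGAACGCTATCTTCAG

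The noncoding share of Klf6 was 42.1%, 40.1% and 21.3% in libraries 1 to 3, and 7.50% of its expected counts on average. In the second quantification it was 68.9% ± 8.58, of which Klf6-202 held 42.6% and Klf6-203, a nonsense-mediated decay model, 26.3%. The first quantification gave Klf6-203 1.15%. The coding and noncoding shares of Klf6 were thus not settled between the deposited quantifications. Klf9-202, a processed transcript, had 0 by the first quantification and 42.4% ± 17.8 of Klf9 in the second, on 4.63 estimated counts on average.

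**Figure D3:**
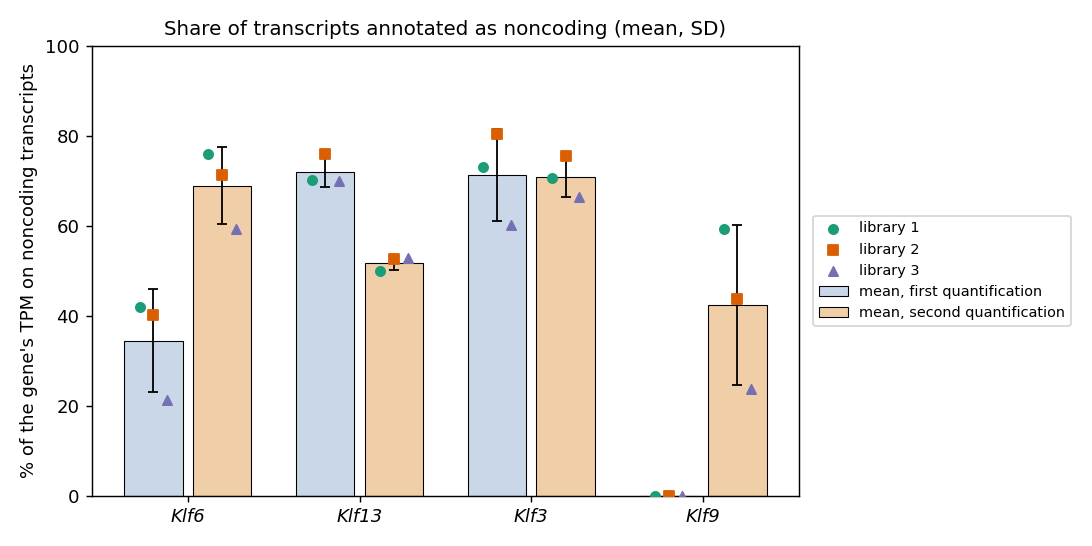
Percent of each gene's TPM on transcripts annotated as noncoding, for the 4 genes that have such transcripts, with bars as means, error bars as SD and symbols as libraries. The bars are close for Klf3 (71.3% and 70.9%) and apart for Klf6 (34.5% and 68.9%).

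In the second quantification other short models also took larger shares, Klf13-202 (599 nt) 26.4% of Klf13 against 6.61% in the first and Klf3-207 (298 nt) 27.0% of Klf3 against 7.32%.

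Of the members without noncoding models, Klf2 and Klf16 have 1 annotated transcript each, and Klf11 was carried by Klf11-201. In Klf10 the first quantification gave Klf10-202 43.6% ± 7.35, Klf10-201 34.5% ± 19.8 and Klf10-203 10.2% ± 1.97. In Klf4 it gave Klf4-201 87.4% and Klf4-203 12.6%, on very few counts, while the second gave Klf4-202 23.2%. Klf7-201 (1477 nt) held 41.7% ± 8.88 of Klf7 and Klf7-202 40.3% ± 14.0. In Klf7 the short Klf7-203 (553 nt) held 18.0% of the first quantification and 68.8% of the second. The long reference Klf7-202 (7662 nt) shares 41.2% of its 31-base words with other genes, Gm26649 and Zfp46. Gm26649, a long intergenic RNA gene on the opposite strand, overlaps 3196 exonic bases of Klf7. Gm26649 itself had 0.02 TPM.

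The second quantification placed all 10 genes above the detection threshold too, along with 14663 of the 22028 protein-coding genes. Its CPM exceeded that of the first by more than 2 times in every library for 2 of 10 KLF genes, Klf10 and Klf11, and for 8.02% of detected protein-coding genes. Klf10 had 4.60 ± 0.81 TPM in the first and 214 ± 79.2 TPM in the second, from 1097, 1263 and 1311 estimated counts. Of this TPM, 96.1% ± 1.00 was on Klf10-204, a 326-nt model to which the first quantification gave 3.52%. By estimated counts Klf10-204 held 71.5% ± 6.97 of the gene. By mean TPM, Klf10 was thus sixth of the 10 genes in one table and second to Klf6 in the other. The second exon of Klf10-204 (chr15:38300267-38300417, minus strand, GENCODE M21) lies in an intron of the reference transcript and is shown because it carries a run of 33 A, in capitals.
Klf10-204: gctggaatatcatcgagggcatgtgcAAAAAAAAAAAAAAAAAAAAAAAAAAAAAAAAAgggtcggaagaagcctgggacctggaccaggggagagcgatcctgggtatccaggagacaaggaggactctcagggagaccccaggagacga

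A run of at least this length was found in 82 of 141767 annotated transcripts, or 0.0578%, and the next longest run in the 36 transcripts of the 10 genes had 14 A. Of the 296 words of 31 bases in Klf10-204, 15 occur in other genes, 209 in all. Whether reads of such runs were placed on Klf10-204 was not tested. Klf11 had 0.20 TPM by the first quantification and 3.71 ± 1.80 by the second, on Klf11-201 in both, from 11, 13 and 22 against 227, 492 and 512 counts. For the other 8 genes the second table's CPM did not pass 2 times that of the first in at least 1 library. By TPM the ratio also passed 2 in every library for Klf7 and Klf4, and the share of all genes passing 2 by TPM was not counted. The median TPM of detected protein-coding genes was itself 7.95 in the second quantification, against 4.94 in the first. For Klf7 the second CPM was below the first in every library, with log2 ratios of -0.18, -0.10 and -0.19.

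**Figure D4:**
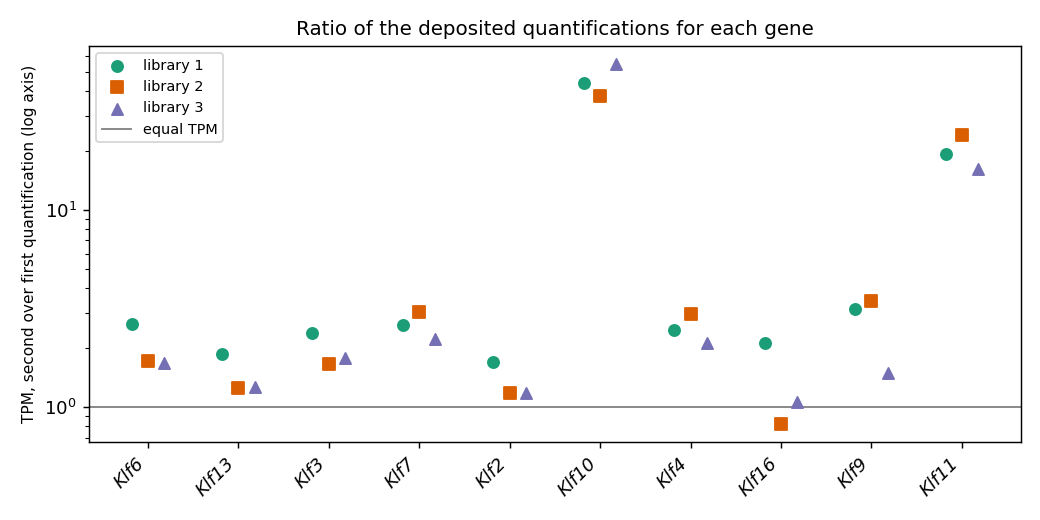
TPM in the second quantification divided by TPM in the first, per gene and library on a log axis, with a line at equal TPM. Klf10 and Klf11 lie far above the other genes in all 3 libraries.

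Genes that overlap a KLF gene were read beside it, since the strand setting of the counting is not given in the sources used here. Inside Klf3, C230096K16Rik, a same-strand locus in an intron, had 5.78 ± 0.57 TPM, above Klf3-201 itself at 2.63 ± 1.54. Gm20033, opposite to Klf3 with 404 shared exonic bases, had 0.60 TPM. Inside the Klf13 intron E030018B13Rik on the opposite strand had 6.85 ± 2.58 TPM and Gm27252 2.28 ± 0.89, with no exonic base shared with Klf13. In Klf7, the antisense gene Gm13748 had 1.57 TPM by the first quantification and 49.7 by the second. The microRNA genes Mir6899 in Klf7 and Mir1192 in Klf9 were listed at 0 in the first quantification and at 5.95 and 3.25 TPM in the second. In the first, the neighbours Gm26710 of Klf16 and 1700016G22Rik of Klf6 had 0.27 and 0.04 TPM. Reads of genes on opposite strands that share bases cannot be told apart here.

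The rest of the family and its partners were read from lists chosen by name, with earlier results of these data known. Beside the counts and medians of these lists, 49.9% of protein-coding genes were detected. The median was 0.29 TPM over all protein-coding genes and 4.94 TPM over the detected ones. Of the 7 other KLF genes, 1 was detected, Klf8, a CtBP-binding relative of Klf3, at 0.47 ± 0.21 TPM. Klf12 and Klf15 had 2 counts each in all and Klf1, the erythroid factor, had 0. In the second quantification Klf12 stood at 10.3 TPM. Of the 9 Sp genes, which encode the sister family with the same DNA-binding fingers, 4 were detected. Sp3 was at 20.0 ± 6.65 TPM, Sp1 at 3.90, 5.77 and 11.6 TPM in libraries 1 to 3, and Sp4 at 2.00 ± 0.58. Sp5 and Sp6 were among the undetected genes.

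The proteins that KLF factors recruit were broadly present as RNA. All 12 cofactor genes were detected, with a median of 15.4 ± 4.13 TPM, led by the corepressor Ncor1 (128 TPM), the deacetylase Hdac1 (64.0) and the acetyltransferase Ep300 (43.1). Ubiquitin ligases known to act on KLF proteins were detected in 8 of 8 cases with a median of 12.5 ± 3.24 TPM. Huwe1 (148 TPM) and Wwp1 (122), which targets Klf2, were well above Fbxw7 (15.3).

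Regulators known to act upstream of KLF genes were detected in 17 of 18 cases with a median of 13.4 ± 3.97 TPM. Mef2c (71.2 TPM) and Mef2a (54.0), which bind the Klf2 promoter in endothelium, led with Hdac5 (48.4), their known inhibitor, and Mef2b was not detected. Genes named as KLF targets in some tissue were detected in 16 of 18 cases, with a median of 8.79 ± 2.16 TPM. Cdkn1a (253 TPM), a cell cycle inhibitor activated by Klf4 and Klf6, the polyamine enzyme gene Odc1 (142) and the mannose receptor gene Mrc1 (116) led, and Dio1 was among those not detected. These are levels after 30 min in 1 group and carry no information on regulation by KLF proteins.

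For scale, the 16 early response genes were all detected, with a median of 99.7 ± 75.5 TPM. Their 3 highest were Dusp1, a phosphatase gene (300.2 TPM), Mcl1, a survival gene (285), and Ppp1r15a, a stress response gene (271), and Klf6 was next to them at 233 TPM. Within libraries Dusp1 exceeded Klf6 in 3 of 3, by 0.38 ± 0.30 on the log2(TPM + 0.1) scale, and was ordered above it by the rule used for the KLF pairs. Mcl1 was above Klf6 in 3 of 3 libraries, but by 0.21 ± 0.21, a mean just under its SD, and Ppp1r15a in 2 of 3. The remaining 9 KLF genes had means of 15.6 TPM or less.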

How the data were processed

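Chromatin-fraction RNA was measured in 3 libraries of 1 group, numbered as in the labels. The authors deposited a gene table and 2 transcript tables per library, using build mm10 and the GENCODE M21 annotation, per the notes deposited beside them. Per the file headers, expected counts, TPM, posterior mean TPM and its credible bounds (a score here) fill the gene table and its matching (first) transcript table, which adds each transcript's percent of its gene. Per the file headers, the other transcript table gives estimated counts with TPM from a separate, here second, quantification. The software is not given in the sources used here, nor is the strand setting of the counting. Deposited TPM has the same total in every library, so it carries no depth.

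Symbols and coordinates came from GENCODE M21, and all 55536 gene identifiers matched. Detection needed an average of 10 or more expected counts. Second-quantification values were summed per gene. Levels are means ± SD of TPM, list medians are means over libraries of each library's median, and orders used log2(TPM + 0.1) with exact sign-flip permutation over libraries. Log2 CPM used expected counts rounded to whole numbers, TMM scaling (edgeR 4.0.16, R 4.3.3) and a prior count of 0.5, and the scaling was tested on simulated data. Intervals are exact Poisson limits at 95% and cover counting error only. Words of 31 bases were compared over all GENCODE transcripts. Python 3.11.15 was used for the rest, with pandas 2.3.3.

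The 10 genes and the lists were chosen with earlier results of these data known. Named were all 10 genes, transcripts with at least 10% of a gene in either quantification, the 3 highest and up to 2 undetected genes of each list that is not a marker list, and genes that overlap a KLF gene or start within 5 kb; 1 gene under this rule is not reported here. Marker genes were named outside the rule, as were motifs. Alternatives were the second quantification, posterior means, TPM rescaled to a total without genes under 300 nt, CPM, other pseudocounts, detection thresholds and scalings (DESeq2 1.42.0 size factors), and leaving out each library.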

Additional observations from a re-analysis of the deposited data

How the results depend on the processing

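The median level of the 10 genes was 5.82 TPM, 13.8 TPM in the second quantification, 16.4 TPM when rescaled over annotated genes of at least 300 nt, and 15.4 as CPM without length correction. The last 2 change the scale of all genes within a library. In the second quantification the median of detected protein-coding genes was also higher, at 7.95 against 4.94 TPM. That of all protein-coding genes was 1.25 against 0.29 TPM. Leaving out each library in turn gave a median of 4.30 to 6.61 TPM for the 10 genes. Of the 9 neighbouring pairs, 2 were ordered, against 4 in the second quantification, which also ordered 4 pairs the other way, and 3 to 4 when a library was left out. Without library 2, 2 pairs were ordered the other way. Requiring a mean of 100 counts left 6 of 10 genes detected, and the share of all genes passing it was not counted. When a library was left out, 8 to 10 were detected, Klf4 and Klf16 being the ones lost without library 3. The median SD of log2 CPM was 0.27 to 0.48 when a library was left out, against 0.21 to 0.26 over detected genes. Both were lowest without library 3. The counts of genes highest in library 3, of genes with a noncoding share over 50% and of lists with a median above that of all protein-coding genes stayed within 1.5 times under the alternatives run. For single genes, leaving out 1 library moved the mean TPM by up to 2.05 times (Klf4) and 1.89 times (Klf2). The second quantification moved the TPM of 7 of 10 genes and the noncoding share of 3 of 4 by more than 1 SD. Posterior mean TPM moved 2 of 10 genes. Such moves were not counted over all genes. The cause of the differences between the quantifications was not tested. Depth limits Klf4, Klf9, Klf11 and Klf16, each with 6 to 27 counts per library.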
